A study of Homo sapiens with 27 samples.

Results

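PPFIA4, FAM13A, GNG4, NPR3 and ANKRD37 are 5 of the 21487 genes counted in Panc1 cells, an established human line of pancreatic ductal adenocarcinoma. They were picked by name because their transcripts were much higher in hypoxia than in normoxia in parental cells, or because that difference was much smaller in both ARNT knockout clones. Those values chose the genes, so the hypoxia responses below are descriptions without a test. All 5 passed the filter on low counts and were among 13943 genes tested. Across 27 polyA RNA libraries there were 9 groups of 3: CRISPR-Cas9 ARNT knockout clone A, ARNT knockout clone B and parental Panc1 cells, each kept for 48 hours in 3 conditions. The conditions were hypoxia (1% O2) in TIFM, hypoxia (1% O2) in regular medium, and normoxia (20% O2) in regular medium. TIFM (Tumor Interstitial Fluid Medium) follows the fluid inside pancreatic tumors, and regular medium was DMEM with serum and antibiotics. TIFM was given only under hypoxia. The knockout is represented by 2 lines of 1 clone each, and no cells with ARNT put back were analysed here, so ARNT loss and a difference that a clone carried for another reason cannot be told apart within 1 clone.

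Cells sense low oxygen through the hypoxia-inducible factors. Their alpha subunits, HIF1A and EPAS1, are degraded when oxygen is plentiful; in hypoxia they accumulate, pair with ARNT and bind hypoxia response elements, whose core letters are ACGTG or GCGTG, near target genes. Without ARNT this pair cannot form, although ARNT also serves other partners such as the aryl hydrocarbon receptor. In pancreatic tumors, which are poorly perfused, this program is known for switching cells towards glycolysis and for inducing growth factors such as VEGFA. PPFIA4 encodes liprin-alpha-4, a scaffold of a family that binds LAR-type receptor phosphatases and organises presynaptic active zones. FAM13A lies at a locus known from genetic studies of lung function. GNG4 encodes a gamma subunit of heterotrimeric G proteins, which works as a dimer with a beta subunit. NPR3 is the clearance receptor that takes up and removes natriuretic peptides. ANKRD37 encodes a small ankyrin-repeat protein and is a known HIF target.

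Promoter windows were searched for both cores, ACGTG and GCGTG. Those of GNG4 and NPR3 with only a GCGTG are described below without their sequence, and no site is ranked above another. The windows shown are those that hold the sequence CACGTG, in which the ACGTG core reads on both strands. Each runs from 250 bases before to 50 bases after a RefSeq transcript start (build GRCh38.p14), 5′ to 3′ on the gene's strand, with every ACGTG or GCGTG on either strand in capitals. The windows shown lie at chr1:203026241-203026540 (plus strand) for PPFIA4, chr4:89057136-89057435 (minus strand) for FAM13A and chr4:185396591-185396890 (plus strand) for ANKRD37.
PPFIA4: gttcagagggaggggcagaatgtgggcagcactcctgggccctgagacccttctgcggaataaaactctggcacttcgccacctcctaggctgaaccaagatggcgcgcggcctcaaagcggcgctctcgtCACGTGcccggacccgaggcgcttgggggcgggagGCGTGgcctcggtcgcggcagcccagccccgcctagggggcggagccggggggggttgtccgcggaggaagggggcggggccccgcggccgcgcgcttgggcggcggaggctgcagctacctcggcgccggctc
FAM13A: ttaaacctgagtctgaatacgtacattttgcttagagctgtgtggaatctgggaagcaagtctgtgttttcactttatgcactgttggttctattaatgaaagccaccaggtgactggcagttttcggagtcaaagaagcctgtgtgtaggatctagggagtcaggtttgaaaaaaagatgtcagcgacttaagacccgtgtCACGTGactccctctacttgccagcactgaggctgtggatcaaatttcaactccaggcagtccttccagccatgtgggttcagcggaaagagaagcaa
ANKRD37: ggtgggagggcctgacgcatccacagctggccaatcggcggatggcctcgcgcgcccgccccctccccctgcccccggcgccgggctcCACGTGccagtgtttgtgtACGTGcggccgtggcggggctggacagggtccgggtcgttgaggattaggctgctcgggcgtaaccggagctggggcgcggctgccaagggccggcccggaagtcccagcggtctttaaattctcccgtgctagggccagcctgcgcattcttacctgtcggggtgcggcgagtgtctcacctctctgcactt
The CACGTG of PPFIA4 begins at position -119 from the transcript start, that of FAM13A at -48 and that of ANKRD37 at -162. ANKRD37 has a further ACGTG at -143, and PPFIA4 a GCGTG at -84 that overlaps no other match. GNG4 had 1 GCGTG, on the opposite strand, in its window at chr1:235650559-235650858 (minus strand). NPR3 had 1 GCGTG in its window at chr5:32710399-32710698 and no match in the window of its other start. The window of the other FAM13A start also held no match. Across all 35116 windows of 300 bases, 7.26% held CACGTG, 21.4% held ACGTG on either strand and 48.45% held ACGTG or GCGTG, so a match to the shorter letters is common. A match is a run of letters and no evidence of binding, and the windows without one say nothing on elements elsewhere.

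Libraries held 26057022 to 38341713 counts (median 31727174). Levels are CPM, each gene's count relative to its library's total after scaling of library sizes with TMM, and fold changes are log2 values with their standard error. Tests are edgeR quasi-likelihood tests with Benjamini-Hochberg adjusted p-values over all tested genes, called under 0.05. ARNT transcripts had group means between 48.8 and 75.5 CPM, and were not a check of the edit, which need not remove the transcript. The keratins KRT8, KRT18 and KRT19, which mark ductal epithelium, had group means between 116 and 4966 CPM and KRT7 between 2.51 and 9.30 CPM, while of 7 markers of other cell types PTPRC, CD3E, CDH5, INS and PRSS1 did not pass the filter. The other 2 passed: PECAM1 with group means of 0.0713 to 0.696 CPM, and CD68, a lysosomal protein used as a macrophage marker, with 84.6 to 236 CPM. Libraries of clone A in hypoxic TIFM stood apart, with a biological coefficient of variation of 29.3% against 4.54% to 17.4% in the other 8 groups. Their TMM factors were 0.777 to 0.890, against 0.925 to 1.08 elsewhere. No label says that replicates were separate cultures, so p-values measure the spread between these libraries. A bulk library cannot tell fewer expressing cells from less RNA per cell.

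**Figure D1:**
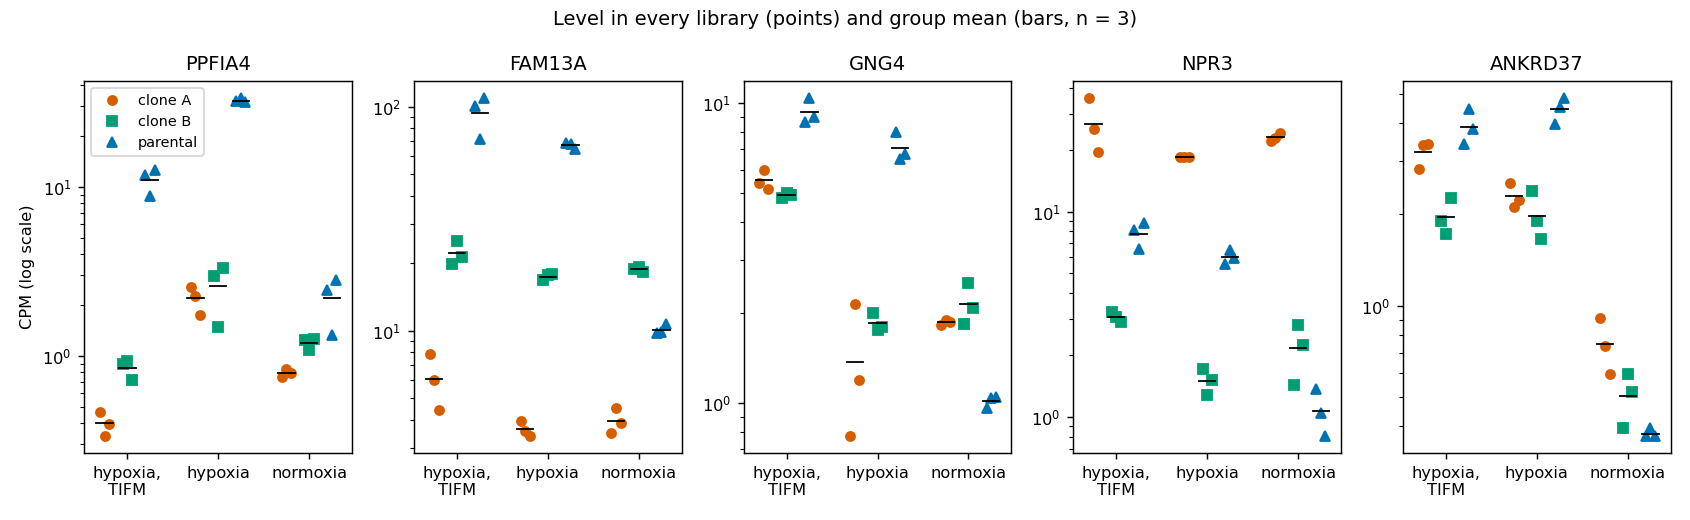
Level of each gene in CPM (log axis) in every library, by condition and genotype; points are libraries and black bars are means of 3. PPFIA4 and FAM13A in parental hypoxia (31.7 to 33.7 and 64.9 to 68.6 CPM) stand far above both clones, while NPR3 in clone A (18.4 to 35.8 CPM over the hypoxic groups) stands above parental cells.

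In regular medium PPFIA4 was far higher in parental hypoxia than in the other 5 groups. PPFIA4 had 2.54, 2.27 and 1.76 CPM in clone A hypoxia, against 0.748, 0.834 and 0.791 CPM in clone A normoxia. It had 2.97, 1.49 and 3.31 CPM in clone B hypoxia, against 1.24, 1.08 and 1.26 CPM in clone B normoxia. In parental cells it had 32.1, 33.7 and 31.7 CPM in hypoxia, against 2.45, 1.32 and 2.81 CPM in normoxia. The ranges of hypoxia and normoxia did not overlap in any of the 3 genotypes. Both clones in hypoxia overlapped parental cells in normoxia. The log2 difference between hypoxia and normoxia was 1.46 ± 0.28 in clone A, 1.12 ± 0.26 in clone B and 3.89 ± 0.24 in parental cells (SE), which left 37.6% and 28.8% of the parental log2 rise in clones A and B. In normoxia the log2 difference from parental cells was -1.46 ± 0.28 for clone A and -0.87 ± 0.26 for clone B. PPFIA4 had the largest parental difference among the 10512 tested genes with a group mean of at least 5 CPM.

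FAM13A levels were close in hypoxia and normoxia within each clone. FAM13A had 3.96, 3.56 and 3.36 CPM in clone A hypoxia, against 3.48, 4.49 and 3.87 CPM in clone A normoxia. Clone B had 16.7, 17.7 and 17.9 CPM in hypoxia, against 18.8, 19.2 and 18.2 CPM in normoxia. Parental cells had 68.6, 68.5 and 64.9 CPM in hypoxia, against 9.73, 9.90 and 10.7 CPM in normoxia. Hypoxia and normoxia overlapped in clone A only. The response was similar in both clones (-0.12 ± 0.17 for clone A and -0.11 ± 0.15 for clone B, against 2.74 ± 0.16 in parental cells), but the levels were not. Clone A stood below parental cells in normoxia (-1.36 ± 0.16) and clone B above them (0.89 ± 0.15). In hypoxia FAM13A was 4.80-fold higher in clone B than in clone A (log2 2.26 ± 0.17, adjusted p = 9.82e-11). The genes were not chosen for a difference between clones, although these libraries were among those that chose them. Higher values in clone B than in clone A were called there for 12.9% of all tested genes, and lower ones for 12.2%.

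GNG4 in the clones stood higher in normoxia than in parental cells. It had 0.773, 2.14 and 1.19 CPM in clone A hypoxia, against 1.82, 1.89 and 1.86 CPM in clone A normoxia. In clone B it had 2.00, 1.75 and 1.79 CPM in hypoxia, against 1.83, 2.51 and 2.08 CPM in normoxia. In parental cells it had 8.01, 6.49 and 6.77 CPM in hypoxia, against 0.960, 1.04 and 1.05 CPM in normoxia. Hypoxia and normoxia overlapped in both clones and not in parental cells. The log2 difference was -0.44 ± 0.23 for clone A and -0.21 ± 0.21 for clone B, against 2.80 ± 0.22 in parental cells. In normoxia the clones stood 0.87 ± 0.23 and 1.07 ± 0.23 above parental cells on the log2 scale. The difference between clones in hypoxia did not pass (0.43 ± 0.23, adjusted p = 0.171). It passed in 1 of 12 alternatives, without clone A hypoxia replicate 2, the highest library of its group (0.90, adjusted p = 0.00239). The libraries compared were among those that chose the gene, so nothing is read from that call.

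NPR3 showed no higher level in hypoxia than in normoxia in either clone, and its level differed widely between the clones. NPR3 had 18.4, 18.4 and 18.5 CPM in clone A hypoxia, against 21.95, 22.9 and 24.1 CPM in clone A normoxia. Clone B had 1.71, 1.28 and 1.52 CPM in hypoxia, against 1.44, 2.81 and 2.24 CPM in normoxia. Parental cells had 5.52, 6.51 and 5.93 CPM in hypoxia, against 1.36, 1.04 and 0.803 CPM in normoxia. Both clones lacked the parental difference of 2.48 ± 0.23, with -0.32 ± 0.19 for clone A and -0.53 ± 0.23 for clone B. In normoxia, however, clone A stood 21.4-fold above parental cells (log2 4.42 ± 0.23) and clone B 2.02-fold above them (1.02 ± 0.25). In hypoxia clone A was 3.07-fold above parental cells and clone B 3.98-fold below them. NPR3 was 12.2-fold lower in clone B than in clone A in hypoxia (-3.61 ± 0.22, adjusted p = 4.02e-12), the 13th lowest value of the 13943 genes in that comparison. Here too the libraries compared were among those that chose the gene.

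ANKRD37 kept the largest share of its hypoxia response in the clones among the 5 genes. It had 2.54, 2.11 and 2.23 CPM in clone A hypoxia, against 0.911, 0.738 and 0.593 CPM in clone A normoxia. In clone B it had 2.38, 1.90 and 1.65 CPM in hypoxia, against 0.394, 0.594 and 0.519 CPM in normoxia. In parental cells it had 3.97, 4.50 and 4.84 CPM in hypoxia, against 0.372, 0.394 and 0.370 CPM in normoxia. Hypoxia stood above normoxia without overlap in all 3 genotypes, on counts of 12 to 179 per library in these groups. The log2 difference was 1.62 ± 0.21 for clone A and 1.97 ± 0.22 for clone B, against 3.53 ± 0.22 in parental cells, leaving 45.9% and 55.7% of the parental log2 rise. ANKRD37 (chromosome 4, 185396021 to 185400628, plus strand) shares 35.2% of its exon length with UFSP2 on the opposite strand, and the strand setting of the counting is not given in the sources used here. UFSP2, a protease of the UFM1 modifier, had group means between 16.2 and 22.7 CPM. Its part in the ANKRD37 counts was not tested.

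**Figure D2:**
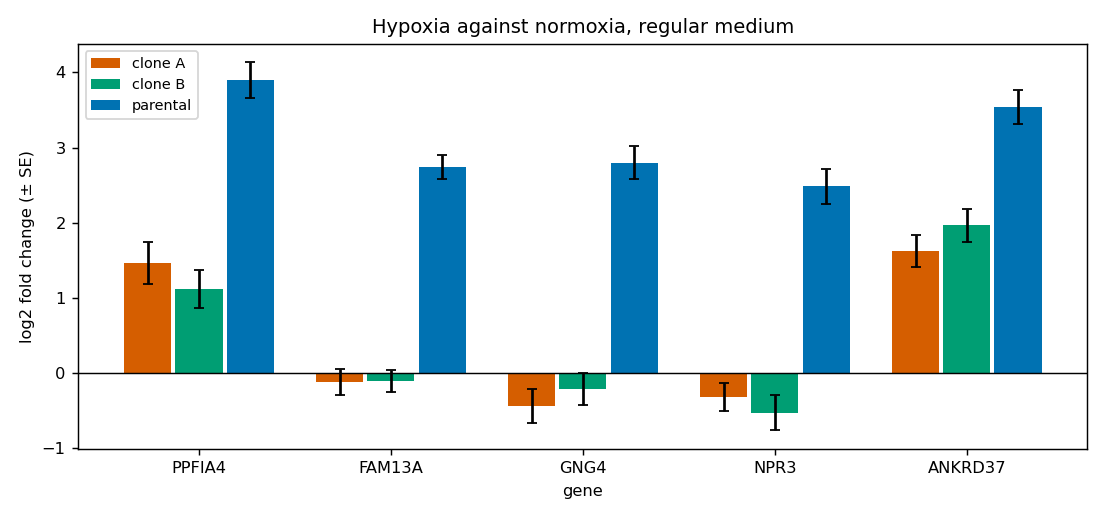
Log2 fold change of hypoxia against normoxia (y axis) for the 5 genes in clone A, clone B and parental cells; bars are fitted values and error bars the SE, n = 3 libraries per group. Parental bars run from 2.48 for NPR3 to 3.89 for PPFIA4, and in the clones only PPFIA4 and ANKRD37 have bars above 1.

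Over all 9 groups PPFIA4 was highest in parental hypoxia, then in parental hypoxic TIFM, without overlap, and the next 3 (clone B hypoxia, parental normoxia and clone A hypoxia) overlapped. FAM13A was highest in parental hypoxic TIFM, parental hypoxia and clone B hypoxic TIFM, in that order without overlap, and lowest in the 3 overlapping groups of clone A. GNG4 ran from parental hypoxic TIFM through parental hypoxia, clone A hypoxic TIFM and clone B hypoxic TIFM without overlap to 5 groups that overlapped their neighbours. NPR3 was highest in the 3 groups of clone A, of which hypoxic TIFM and normoxia overlapped, and lowest in clone B normoxia, clone B hypoxia and parental normoxia, which overlapped. ANKRD37 was highest in parental hypoxia and parental hypoxic TIFM, which overlapped, and lowest in the 3 normoxia groups.

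Per kilobase of exon, FAM13A was the most abundant of the 5 in parental hypoxia at 5.10 ± 0.16 CPM per kb (SD, n = 3), followed by PPFIA4 at 3.35 ± 0.11, ANKRD37 at 1.72 ± 0.17, GNG4 at 1.31 ± 0.15 and NPR3 at 0.607 ± 0.050. In clone A hypoxia the same scale put NPR3 first at 1.87 ± 0.0065, followed by ANKRD37 at 0.890 ± 0.086, while FAM13A, GNG4 and PPFIA4 lay between 0.226 and 0.275. Exon lengths are from GENCODE release 29 on GRCh38, where PPFIA4 (chromosome 1, 203026498 to 203078740, plus strand), GNG4 (chromosome 1, 235547687 to 235650754, minus strand) and NPR3 (chromosome 5, 32689070 to 32791724, plus strand) share no exon with another gene. FAM13A (chromosome 4, 88725955 to 89111398, minus strand) shares 6.24% with its antisense gene FAM13A-AS1, which was not analysed here.

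The hypoxic TIFM libraries took no part in choosing the genes, and in them the clones can be tested against parental cells. In clone A 3 of the 5 were lower and 1 higher, where 30.7% of all tested genes were called lower and 30.9% higher. In clone B all 5 were lower, where 25.4% of all tested genes were called lower and 22.1% higher. With only the libraries compared, and so without clone A, all 5 were again lower in clone B. The fit of only clone A and parental libraries kept 3 lower and 1 higher in clone A. In it 5402 genes were called in all, against 8597 in the fit of all libraries. The median of the 5 was -0.76 for clone A and -1.34 for clone B, beside -0.01 over all tested genes in each. A list of 24 well-known HIF targets without these 5, such as VEGFA and NDRG1, had 21 lower and 1 higher in clone A (median -1.86) and 23 lower in clone B (median -2.14). VEGFA differed by -1.69 ± 0.14 and -2.16 ± 0.14, and NDRG1, a stress-response gene, by -3.67 ± 0.18 and -3.99 ± 0.18. Both comparisons share the parental libraries. Of 5 epithelial and mesenchymal markers (KRT7, KRT8, KRT18, KRT19 and VIM), 0 were higher and 3 lower in clone A, and 0 higher and 5 lower in clone B; their part in the result was not tested. CD68 was higher in both clones, by 1.23 ± 0.16 for clone A (adjusted p = 2.73e-07) and 0.54 ± 0.16 for clone B (adjusted p = 0.00634), and its part was not tested either. Of 7 tested genes of the HIF system itself, 2 were higher and 4 lower in clone A, and 3 higher and 4 lower in clone B. Among the 7, ARNT2, a close relative of ARNT, was scarce in both clones in every condition. Its group means were 0.246 to 1.23 CPM in clone A, 0.960 to 2.41 CPM in clone B and 13.8 to 31.3 CPM in parental cells. The part of ARNT2 in these results was not tested.

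PPFIA4 was 27.2-fold lower in clone A and 12.99-fold lower in clone B than in parental cells in hypoxic TIFM. It had 0.468, 0.333 and 0.395 CPM in clone A, 0.889, 0.928 and 0.717 CPM in clone B, and 11.7, 8.79 and 12.7 CPM in parental cells. The groups did not overlap, and the log2 differences were -4.77 ± 0.30 (adjusted p = 1.04e-12) and -3.70 ± 0.26 (adjusted p = 1.76e-11). PPFIA4 was higher in clone B than in clone A (1.07 ± 0.37, adjusted p = 0.0174), on 8 to 28 counts per library, and without clone A hypoxia TIFM replicate 2 that call was lost (0.95, adjusted p = 0.0675).

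FAM13A was 15.3-fold lower in clone A and 4.26-fold lower in clone B than in parental cells. It had 7.83, 6.04 and 4.39 CPM in clone A, 19.8, 25.2 and 21.3 CPM in clone B, and 101, 71.8 and 109 CPM in parental cells. The 3 groups did not overlap. The log2 differences were -3.94 ± 0.17 (adjusted p = 6.95e-16) and -2.09 ± 0.15 (adjusted p = 2.7e-11). Between the clones 26.7% of all tested genes were called higher and 29.4% lower in clone B, with FAM13A and PPFIA4 higher and NPR3 and ANKRD37 lower. The clones again stood apart in FAM13A, with clone B 3.60-fold above clone A (1.85 ± 0.16, adjusted p = 2.02e-09).

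NPR3 split the clones in hypoxic TIFM as in regular medium, standing 3.43-fold above parental cells in clone A and 2.54-fold below them in clone B. It had 35.8, 25.1 and 19.5 CPM in clone A, 3.24, 3.08 and 2.91 CPM in clone B, and 8.11, 6.55 and 8.78 CPM in parental cells. The 3 groups did not overlap. The log2 differences were 1.78 ± 0.19 (adjusted p = 1.99e-08) and -1.34 ± 0.21 (adjusted p = 9.01e-06). The difference between the clones was -3.12 ± 0.21 (clone B minus clone A, adjusted p = 2.21e-11).

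GNG4 and ANKRD37 showed smaller differences. GNG4 had 5.42, 5.95 and 5.18 CPM in clone A, 4.83, 5.005 and 4.95 CPM in clone B, and 8.65, 10.4 and 9.00 CPM in parental cells. Both clones lay below all parental libraries. It was 1.69-fold lower in clone A (-0.76 ± 0.19, adjusted p = 0.00146) and 1.90-fold lower in clone B (-0.92 ± 0.19, adjusted p = 0.000323). ANKRD37 had 2.81, 3.37 and 3.41 CPM in clone A, 1.91, 1.72 and 2.27 CPM in clone B, and 3.41, 4.45 and 3.82 CPM in parental cells. Clone B lay below both other groups, while the highest library of clone A lay close to the lowest parental one. It was lower in clone B (-0.99 ± 0.19, adjusted p = 0.000128), while its value in clone A was -0.29 ± 0.19 (adjusted p = 0.184). The clones differed (clone B minus clone A -0.70 ± 0.19, adjusted p = 0.00343), a call lost with only the libraries compared (-0.65, adjusted p = 0.0853). UFSP2 differed from parental cells by 0.06 ± 0.14 for clone A and 0.22 ± 0.14 for clone B.

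**Figure D3:**
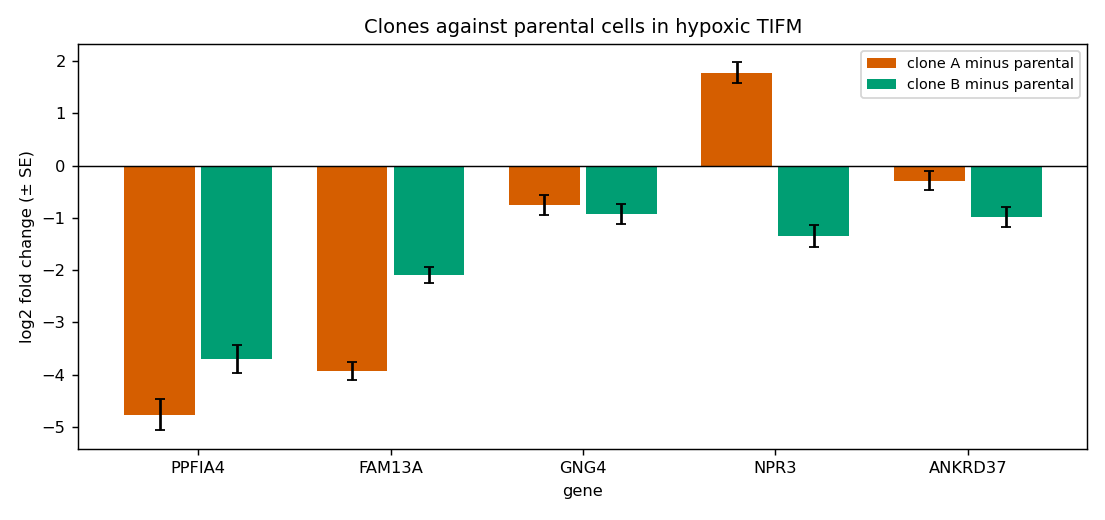
Log2 fold change of each clone against parental cells in hypoxic TIFM (y axis) for the 5 genes; bars are fitted values and error bars the SE, n = 3 libraries per group. NPR3 is the gene with bars on opposite sides of 0 (1.78 for clone A and -1.34 for clone B), and PPFIA4 has the lowest bar in each clone (-4.77 and -3.70).

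The change from regular medium to TIFM under hypoxia addressed how the nutrient setting alters these genes. It was not in the choice of the genes, but its hypoxia libraries were: a gene picked for a high parental or a low clone value in hypoxia leans by that choice towards a lower value with TIFM in parental cells and a higher one in the clones. The differences between these responses in clones and parental cells lean the same way and are therefore given as descriptions, without a test. A p-value below for a rise in a clone or a fall in parental cells carries this lean and is no independent support. The same holds for the counts of such changes. In clone A 4 of the 5 rose and 1 fell, where 33% of all tested genes rose and 34.2% fell. In clone B 2 rose and 1 fell, where 25.9% rose and 27.9% fell. In parental cells 1 rose and 1 fell, where 21.8% rose and 20.4% fell.

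PPFIA4 fell with TIFM in all 3 genotypes, which in parental cells is the direction of that lean and in the clones is against it. Its log2 change was -2.43 ± 0.33 in clone A (adjusted p = 4.47e-07), -1.61 ± 0.28 in clone B (adjusted p = 2.48e-05) and -1.55 ± 0.21 in parental cells (adjusted p = 2.1e-06). Both clones then stood below their own normoxia libraries, with group means of 0.399 CPM in TIFM and 0.791 CPM in normoxia for clone A, and 0.845 and 1.19 CPM for clone B. In parental cells the TIFM mean of 11.1 CPM stayed above the normoxia mean of 2.19 CPM. The change minus the parental one was -0.87 ± 0.40 for clone A and -0.05 ± 0.32 for clone B. Its relatives were split: of 10 tested liprins and liprin partners, 5 rose and 4 fell in clone A, 4 rose and 4 fell in clone B, and 4 rose and 3 fell in parental cells. PPFIA3 fell in all 3 genotypes (-0.78 ± 0.17 in clone A, -0.54 ± 0.17 in clone B and -1.51 ± 0.17 in parental cells), and PPFIA1 rose in all 3 (0.40 ± 0.11, 0.55 ± 0.11 and 0.43 ± 0.11 in the same order). PPFIA2 rose in parental cells (2.40 ± 0.61), but it was scarce. It had 0.258 ± 0.364 CPM in parental hypoxia and 1.34 ± 0.56 CPM in parental hypoxic TIFM (SD, n = 3).

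GNG4 rose with TIFM in both clones, the direction in which the choice of the gene leans a clone. It was 4.02-fold higher in clone A (2.01 ± 0.22, adjusted p = 1.1e-08) and 2.66-fold higher in clone B (1.41 ± 0.21, adjusted p = 3.44e-06), while the parental change of 0.40 ± 0.19 did not pass (adjusted p = 0.0906). The parental change did pass with DESeq2 (adjusted p = 0.0454) and with only the libraries compared (adjusted p = 0.0417). The change minus the parental one was 1.61 ± 0.29 for clone A and 1.01 ± 0.28 for clone B. Over all tested genes 19.3% were called with a higher and 19.6% with a lower response than in parental cells for clone A, and 4.06% and 6.34% for clone B; nothing is read from these shares for GNG4, whose hypoxia values were used to pick it. In both clones the TIFM libraries (4.83 to 5.95 CPM) stood above all libraries in regular medium (0.773 to 2.51 CPM).

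For FAM13A, NPR3 and ANKRD37 the changes with TIFM lay between -0.19 and 1.03 on the log2 scale over the 3 genotypes. Rises in the clones are again in the direction of the lean. FAM13A rose in clone A (0.76 ± 0.17, adjusted p = 0.000374) and in parental cells (0.48 ± 0.15, adjusted p = 0.00919), but the parental call was lost without parental hypoxia TIFM replicate 3 (0.36, adjusted p = 0.0727). In clone B its value was 0.34 ± 0.15 (adjusted p = 0.056), which passed with DESeq2 (adjusted p = 0.0386) and with only the libraries compared (adjusted p = 0.0375), among 4 alternatives. NPR3 rose in clone B (1.03 ± 0.23, adjusted p = 0.000535) and in clone A (0.54 ± 0.19, adjusted p = 0.0126), with 0.38 ± 0.20 in parental cells (adjusted p = 0.119). The clone A call was lost without clone A hypoxia TIFM replicate 1 (0.28, adjusted p = 0.168) and with only the libraries compared (adjusted p = 0.0834). ANKRD37 rose in clone A (0.47 ± 0.19, adjusted p = 0.0305), a call lost with upper quartile scaling, with only the libraries compared (adjusted p = 0.158) and on leaving out any of 4 single libraries (clone A hypoxia replicates 2 and 3, clone A hypoxia TIFM replicates 2 and 3). Its values were -0.01 ± 0.19 in clone B and -0.19 ± 0.18 in parental cells.

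**Figure D4:**
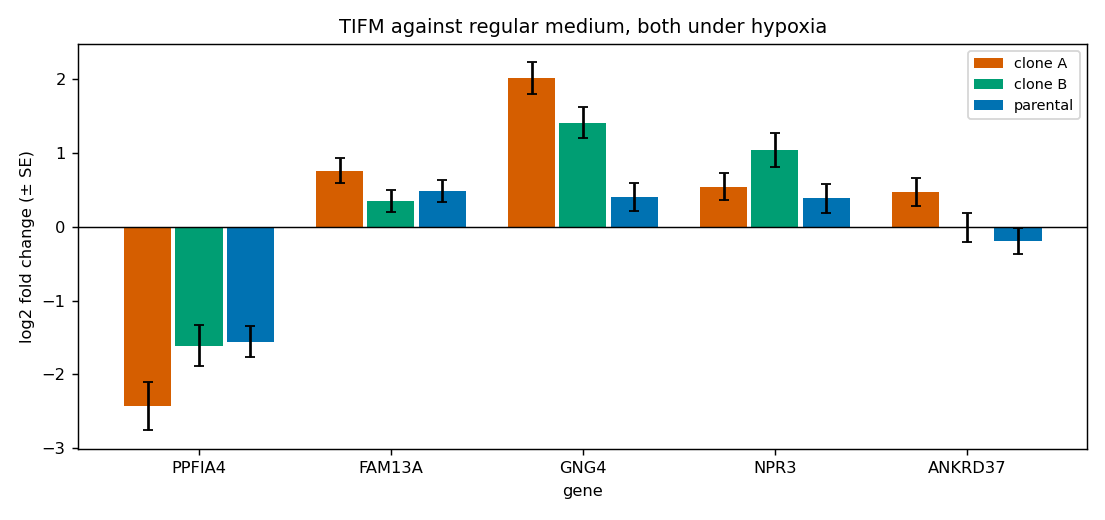
Log2 fold change of TIFM against regular medium under hypoxia (y axis) for the 5 genes in clone A, clone B and parental cells; bars are fitted values and error bars the SE, n = 3 libraries per group. PPFIA4 lies below 0 in all 3 genotypes (-2.43, -1.61 and -1.55), and GNG4 has its higher bars in the clones (2.01 and 1.41, against 0.40).

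Relatives and partners of the 5 genes were counted in hypoxic TIFM from lists that leave the 5 out. Of 10 tested liprins and liprin partners, 2 were higher and 3 lower in clone A, and 0 higher and 4 lower in clone B, beside the percentages for all genes above. PPFIBP1, a liprin-beta, was lower in both clones (-2.71 ± 0.21 and -1.23 ± 0.20), as was PPFIBP2 (-1.47 ± 0.19 and -1.62 ± 0.19), while the widely expressed PPFIA1 gave -0.16 ± 0.11 and 0.25 ± 0.11 and passed in neither. Of 10 tested G protein beta and gamma subunits, 3 were higher and 2 lower in clone A, and 1 higher and 3 lower in clone B. GNG11 was lower in both clones (-3.05 ± 0.32 and -2.50 ± 0.29), and GNG5 was higher in clone A (1.03 ± 0.13). GNG2 was found mainly in clone B, with 1.60 ± 0.42 CPM there in TIFM (SD, n = 3), 0.170 ± 0.240 CPM in clone A and 0.0418 ± 0.0452 CPM in parental cells. FAM13B, the one other FAM13 gene that passed the filter, was lower in clone A (-0.93 ± 0.21) and gave 0.11 ± 0.20 in clone B.

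Of 8 tested genes of the natriuretic peptide system, 1 was higher and 3 lower in each clone in hypoxic TIFM. Over all tested genes 30.9% were called higher and 30.7% lower in clone A, and 22.1% and 25.4% in clone B. The 3 lower in clone A were NPPB, NPPC and PRKG2, with hypoxic TIFM group means of at most 1.74 CPM. The higher one in both was PRKG1, a cyclic GMP-dependent protein kinase (1.36 ± 0.19 for clone A and 1.29 ± 0.19 for clone B). NPR2, the signalling receptor for C-type natriuretic peptide, gave -0.08 ± 0.20 in clone A and was lower in clone B (-0.71 ± 0.20, adjusted p = 0.0058). Transcripts of the peptides themselves were scarce, with group means of at most 0.925 CPM for NPPC and 0.922 CPM for NPPB. Another 4 genes were the overlapping UFSP2 and the ubiquitin ligase substrate receptors FEM1A, FEM1B and FEM1C. Of these, 0 were higher and 2 lower in clone A, and 0 higher and 1 lower in clone B, beside the same percentages.

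The genes whose group means followed each of the 5 most closely over the 9 groups were taken by Pearson correlation of mean log2 CPM against 13942 other genes, as a description in which both genes of a pair come from the same libraries. For PPFIA4 they were TSPEAR (r = 0.991), SH3D21 (0.985) and LCN15 (0.984). For FAM13A they were SORCS2 (0.980), EBI3 (0.978) and KREMEN1 (0.975). For GNG4 they were PYGL (0.966), AC002310.5 (0.948) and FOSL2 (0.948), and for ANKRD37 NANOS3 (0.964), KDM3A (0.961) and AC020910.5 (0.955). Several of the genes named were scarce, such as AC002310.5, NANOS3 and LCN15. Their highest group means were 0.455, 1.08 and 2.20 CPM in that order. NPR3 was followed by EEF1A1 (0.958), GRB10 (0.945) and NT5M (0.939), of which EEF1A1 moved only between 13138.5 and 17565.6 CPM. The 5 genes followed each other less closely, from -0.39 for FAM13A with NPR3 to 0.75 for PPFIA4 with FAM13A and for GNG4 with ANKRD37.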

How the data were processed

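PolyA RNA of 27 libraries was sequenced. The authors deposited raw read counts per gene; per the submitters' processing notes, HISAT2, featureCounts and GRCh38 were used, with versions, annotation and strand setting not given in the sources used here. Column names matched the library names in the labels. GENCODE release 29 gave symbols to 21409 of 21487 genes and a further table to 70; the 5 genes matched 1 row each. All libraries entered 1 fit in edgeR 4.0.16 (R 4.3.3) with TMM factors, filterByExpr (minimum count 10, minimum total 15), 1 coefficient per group and robust quasi-likelihood tests. The design has 9 tested contrasts; the TIFM responses of each clone minus parental cells are given without p-values, because their hypoxia libraries picked the genes. On data simulated for clone A against parental cells in hypoxic TIFM (13527 genes), the fit recovered 77 of 100 genes changed 2-fold and 93 of 100 changed 4-fold. It made 11 false calls. The simulation gave all genes and groups 1 dispersion of 0.02, near the common one of the data (coefficient of variation 14.1%). Clone A in hypoxic TIFM had 29.3%, so these rates do not describe recovery in those libraries. The genes, lists and tests were chosen with earlier results of these data known. Genes were named by rule: the 5, ARNT, VEGFA, NDRG1, overlapping genes, members of the family, pathway and marker lists, and the 3 most alike per gene. Promoters are from RefSeq. Replicates differed by more than sampling noise. Same-numbered libraries deviated together (every correlation over 0.1) for clone B with parental cells and with clone A in hypoxic TIFM, and in 3 of 36 pairs of groups in all. Alternatives were RLE and upper quartile scaling, no filter, DESeq2 1.42.0, only the libraries compared, a replicate block and leaving out each library.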

Additional observations from a re-analysis of the deposited data

Results flagged for a closer look

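The response to TIFM under hypoxia minus that of parental cells was 1.61 on the log2 scale for GNG4 in clone A, 1.01 for GNG4 in clone B and 0.66 for ANKRD37 in clone A. These 3 values are descriptions: the hypoxia libraries in them are those that picked the genes, for high parental or low clone values in hypoxia, which leans such a difference upwards. The ANKRD37 value ranged from 0.57 to 0.77 over 18 alternatives. A test of the difference between the clones passed for 6 results. The distance from parental cells differed between the clones in hypoxic TIFM, given as clone B minus clone A, for PPFIA4 (1.07), FAM13A (1.85), NPR3 (-3.12) and ANKRD37 (-0.70). In that comparison 26.7% of all tested genes were called higher and 29.4% lower in clone B. The PPFIA4 call was lost without clone A hypoxia TIFM replicate 2 (adjusted p = 0.0675). That of ANKRD37 was lost with only the libraries compared (adjusted p = 0.0853). In hypoxia in regular medium the clones differed for FAM13A (2.26) and NPR3 (-3.61). There 12.9% of all tested genes were called higher and 12.2% lower in clone B. These hypoxia libraries were among those that chose the genes. NPR3 lay above parental cells in clone A and below them in clone B in both hypoxic conditions.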

How the results depend on the processing

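Of 610 values of the 5 genes recomputed in the tested contrasts, 568 kept direction and call, 26 lost the call, 8 gained it and 8 changed sign; none of these 8 was called. The sign changes were ANKRD37 for TIFM in clone B (0.14, 0.03 and 0.07 without clone B hypoxia replicate 1 or hypoxia TIFM replicates 1 and 2; range -0.13 to 0.14), NPR3 for the TIFM response of clone A minus parental (-0.11 without clone A hypoxia TIFM replicate 1; highest 0.36), and PPFIA4 for that of clone B minus parental (0.05, 0.17, 0.05 and 0.04 without clone B hypoxia replicates 1 and 3, parental hypoxia TIFM replicate 3 and clone B hypoxia TIFM replicate 3; lowest -0.33). With only the libraries compared, 5402 genes were called for clone A against parental cells in hypoxic TIFM (8597 in the fit of all libraries), 3802 for clone B minus clone A there (7823) and 3539 for the TIFM response of clone A minus parental (5426), and 3 of the 5 genes for TIFM in clone A. For the TIFM response of clone A minus parental, 2 of the 5 were called in the full fit, where 19.3% of all tested genes were called higher and 19.6% lower. With upper quartile scaling, no filter, only the libraries compared and the replicate block, 1 of the 5 was called. The range over left-out libraries was 1 to 3. Leaving out 1 library gave 0 to 1 for clone B in that contrast, with 933 to 1456 genes (1450 in the full fit; 933 without parental hypoxia replicate 1), and 1 to 2 for TIFM in parental cells. The cause of these changes was not tested. Counts and calls for the TIFM responses of clones minus parental cells are among those above. They support no result here, since the hypoxia libraries in them picked the genes. The replicate block was also set in the pair of contrasts whose libraries deviated together. With it, all 5 genes were called for clone B against parental cells and 4 for clone B against clone A in hypoxic TIFM. In the fit of all libraries these counts were the same without it. They also held for the block with only the libraries compared, a fit added after seeing the data. Without the block, the fit of only the libraries compared lost the call of ANKRD37 for clone B against clone A (-0.65, adjusted p = 0.0853). In the fit of all libraries the block changed only the call of ANKRD37 for the TIFM response of clone A minus parental. That value (0.66 with the block) is a description here. Depth limits PPFIA4 in clone A in TIFM, at 8 to 14 counts per library.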
